A study of Mus musculus with 6 samples.

Results

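The 10 genes described here are Actr2, Actr3, Actr3b, Arpc1a and Arpc1b, which code subunits of the Arp2/3 complex, and Wasl, Wasf1, Wasf2, Whamm and Jmy, which code proteins that switch the complex on. They were taken by name, as known actin nucleators of the branched type, from the 55335 genes of the count table. The list is by name and sets no threshold on a value, but it was chosen with earlier results of these data known. All 10 were found, and all 10 passed the filter on low counts that left 15881 genes for the test. Actr3b passed it through the Ctrl group only, with 11 to 25 counts a library there and 4 or 5 in Confine.

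Mouse embryonic fibroblasts (MEFs), labelled wild type, were seeded on a transwell membrane with 3 μm pores, and cells that had crossed within 15 h (Confine) were compared by RNA-seq of polyadenylated RNA with the parental cells (Ctrl). Neither group received another agent or allele according to the labels, and the comparison addresses which transcripts differ in cells that have migrated through a narrow passage. The Confine cells were those that crossed, so a change during passage and a difference already present in the cells able to cross cannot be told apart. No pore size or time is given for Ctrl, so an effect of culture on the membrane cannot be told apart from these either. The paper's transwell method, described for wider pores, puts serum only below the insert. The medium used with the 3 μm pores is not given separately, so an effect of serum cannot be told apart. The file has 3 columns per group, but Confine replicates 1 and 2 hold identical counts in all 55335 genes and were used as 1 library, named Confine 1 below, which leaves 3 Ctrl and 2 Confine libraries. The labels do not say whether replicates came from separate cultures, so p-values measure the spread between these libraries, which may be technical.

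The Ctrl libraries held 22287210 to 27853805 counts each, and those of Confine held 27290138 and 32537550. The SD of log2 differences over the tested genes was 0.473 to 0.597 between libraries of the same group and 0.948 to 0.999 between groups. Of 11 fibroblast markers, 8 were tested, and Vim, Col1a1 and Col1a2 were abundant, whereas Thy1 and Lum had at most 2 counts in any library. The summed level of the fibroblast markers was 8745 to 9602 counts scaled to a common library size (CPM, normalised counts per 1e+06) in Ctrl and 15732 and 16510 in Confine. Vim weighs heavily in that sum, with a mean of 3476 CPM in Ctrl and 6807 in Confine. At an adjusted p under 0.05 by edgeR, 5 of the 8 rose (Vim, Col1a1, Col3a1, Fn1 and Pdgfra), or 62.5%, against 23.0% of all tested genes. The other 3 did not pass, namely Col1a2 (log2 fold change 0.24), Pdgfrb (-0.36) and S100a4 (-0.28). The 12 leukocyte markers summed to 8.21 to 8.60 CPM in Ctrl and to 19.2 and 26.4 in Confine. Cd68, a lysosomal protein abundant in macrophages, made up most of that level in Confine (log2 fold change 2.67), Lyz2, a lysozyme of myeloid cells, was lower there (-2.64), and Adgre1, Tyrobp and Cd3e had no count in any library. Csf1r, a receptor of macrophages, was at 0.340 to 0.691 CPM in Ctrl and at 1.15 and 1.75 in Confine (log2 fold change 1.45, adjusted p = 0.0367 by edgeR). Endothelial and epithelial markers summed to less than 1 CPM in every library. The part of these marker differences in the results that follow was not tested.

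The Arp2/3 complex binds the side of an actin filament and starts a new filament from it, which builds the branched networks of lamellipodia, endocytic sites and moving vesicles. Arp2 and Arp3, coded by Actr2 and Actr3, are actin-like and form the first units of the branch, and the ArpC subunits hold them and attach them to the mother filament. The complex is nearly inactive until a nucleation promoting factor delivers an actin monomer to it. N-WASP (Wasl) does so downstream of Cdc42, WAVE1 and WAVE2 (Wasf1 and Wasf2) downstream of Rac, and WHAMM and JMY mainly on internal membranes, including those of the Golgi, the endoplasmic reticulum and autophagosomes. JMY can also nucleate unbranched filaments without Arp2/3 and shuttles to the nucleus, where it acts as a p53 cofactor.

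Whamm and Jmy rose in Confine, with mean levels 4.37-fold and 2.87-fold those of Ctrl (n = 3 Ctrl and 2 Confine libraries). Wasf1 fell, with a mean level in Ctrl 2.62-fold that in Confine, and Actr3b, a scarce transcript, fell too. Wasl, Wasf2, Actr2, Actr3, Arpc1a and Arpc1b did not pass the test, and their log2 fold changes lay between -0.29 and 0.23. In all, 2 of the 10 genes rose and 2 fell at an adjusted p under 0.05 by edgeR's quasi-likelihood test, or 40.0%, where 23.0% of all tested genes did so (12.8% higher and 10.2% lower). Actr3b, which entered the test through its higher group, is among the 4, and 3 of the other 9 genes changed. In bulk RNA, a change in the share of cells that express a gene and a change in the RNA per cell cannot be told apart.

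With 10 genes this count is small, and Actr3b, 1 of the 4, is sensitive to single libraries as described with its values. Under an additional demand of an absolute log2 fold change above 1.5, Whamm, Jmy and Actr3b were called, where 8.00% of tested genes were (4.89% higher and 3.11% lower). Jmy, at 1.52, stands at that limit and was past it in 9 of 14 alternative analyses. It fell short at 1.45 without Ctrl 1, 1.48 without Ctrl 3, 1.38 without Confine 1, 1.31 with scaling by library size alone and 1.45 with a replicate block that takes the identical columns as number 2. The median log2 fold change was 0.14 over the 10 genes and -0.0021 over all tested genes. The levels of Ctrl and Confine libraries did not overlap for 6 of the 10 genes, a property of 49.5% of tested genes (25.9% higher and 23.6% lower).

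**Figure D1:**
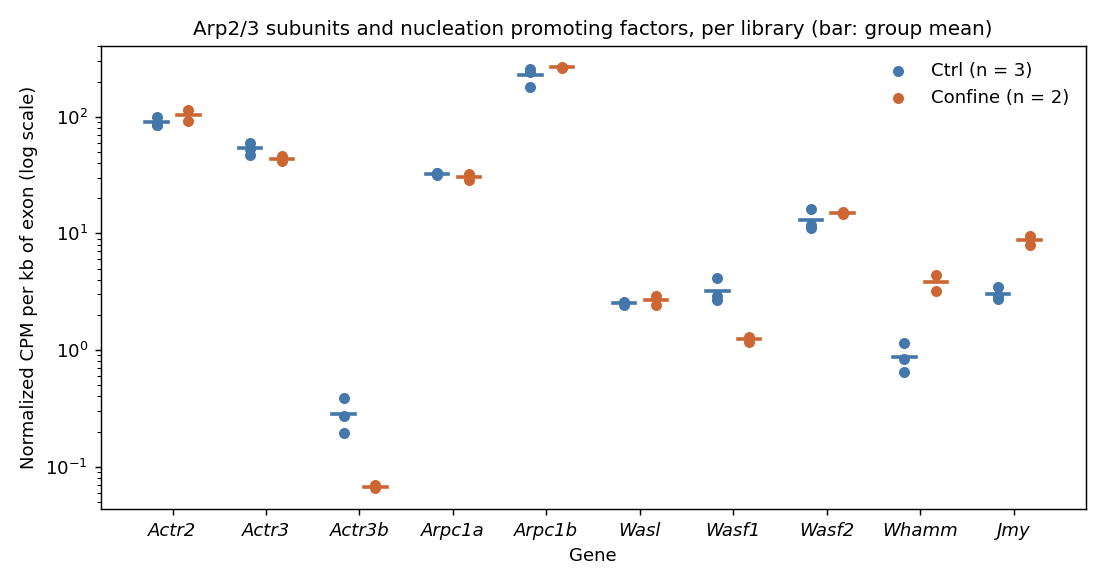
Normalised level in CPM per kb of exon (log axis) of each of the 10 genes, with a point for each of the 3 Ctrl and 2 Confine libraries and a bar at the group mean. Whamm (0.643 to 1.14 CPM per kb in Ctrl, 3.22 and 4.41 in Confine) and Jmy sit higher in Confine, Wasf1 and Actr3b sit lower, and the points of the other genes lie close together.

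Whamm and Jmy are close relatives, and the promoters of the 3 genes whose call held in every alternative analysis are shown because these are the genes that moved. Each window has 300 bases, 250 before the RefSeq start and 50 from it onward (GRCm38.p6), on the strand of the gene. The windows lie at chr7:81571042-81571341 (plus strand) for Whamm, chr13:93499759-93500058 (minus strand) for Jmy and chr10:40883284-40883583 (plus strand) for Wasf1. Jmy is known as a target of the hypoxia-inducible factor HIF-1, and capitals mark every match on either strand to ACGTG or GCGTG, the core letters of the hypoxia response element.
Whamm: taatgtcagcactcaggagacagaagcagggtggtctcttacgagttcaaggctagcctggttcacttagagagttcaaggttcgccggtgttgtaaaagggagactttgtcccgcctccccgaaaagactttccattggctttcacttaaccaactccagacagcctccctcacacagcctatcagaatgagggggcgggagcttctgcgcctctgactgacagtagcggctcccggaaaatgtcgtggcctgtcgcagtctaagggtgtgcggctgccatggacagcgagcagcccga
Jmy: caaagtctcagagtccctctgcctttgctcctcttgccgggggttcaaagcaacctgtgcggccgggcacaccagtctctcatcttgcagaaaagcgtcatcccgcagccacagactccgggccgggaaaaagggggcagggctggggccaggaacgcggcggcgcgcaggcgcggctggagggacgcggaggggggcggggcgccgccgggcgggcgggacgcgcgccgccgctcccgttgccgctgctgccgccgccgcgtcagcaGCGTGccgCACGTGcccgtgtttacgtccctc
Wasf1: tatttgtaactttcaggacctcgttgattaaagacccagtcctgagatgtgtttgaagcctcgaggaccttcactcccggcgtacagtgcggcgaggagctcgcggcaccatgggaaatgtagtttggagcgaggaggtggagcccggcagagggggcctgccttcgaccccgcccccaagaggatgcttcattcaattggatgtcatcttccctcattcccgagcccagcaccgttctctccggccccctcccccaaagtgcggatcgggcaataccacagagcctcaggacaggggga

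The Jmy window held ACGTG at base 28 after the start and its mirror match on the other strand from base 27, which together are the palindrome CACGTG, and GCGTG at base 19. Neither word occurred in the windows of Whamm and Wasf1, which says only that these letters are not in these 300 bases. Of the 9 genes with an entry, Actr3b having none, Jmy alone held ACGTG, where 19.6% of 32851 promoter windows did. GCGTG occurred in 5 of the 9 (Jmy, Actr3, Arpc1a, Arpc1b and Wasl), where 32.4% of windows held it. The matches are a description of sequence and no measurement of binding was made.

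Whamm (chr7:81571266-81596836, plus strand) codes an activator that links Arp2/3 to membranes and microtubules. Its transcripts were counted 77, 96 and 48 times in Ctrl and 303 and 353 times in Confine. After TMM scaling, a normalisation between libraries, this gave 2.66, 3.63 and 2.04 CPM in Ctrl and 10.2 and 14.0 in Confine, where 3 counts correspond to 0.101 to 0.128 CPM. The groups stood well apart, with no Confine level near the highest Ctrl level. Mean levels were 2.78 ± 0.800 CPM (SD, n = 3) for Ctrl and 12.1 ± 2.67 (n = 2) for Confine. The fitted log2 fold change was 2.12 ± 0.27 (SE), with a 95% interval of 1.55 to 2.69 and an adjusted p of 1.28e-05 by edgeR, and Whamm took rank 445 from the top among all tested genes. The log2 fold change stayed between 1.88 and 2.35 in 14 alternatives and passed the test in 14. Gm45698, a transcript without known product on the same strand inside Whamm, had 1 to 15 counts.

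Jmy (chr13:93430101-93499808, minus strand) was the more abundant of the pair. It had 697, 810 and 605 counts in Ctrl and 2493 and 1758 in Confine, or 24.1, 30.6 and 25.7 CPM against 84.2 and 69.8. The groups did not overlap, and Jmy was highest in Confine 1 whereas Whamm was highest in Confine 3. Means were 26.8 ± 3.40 CPM (n = 3) for Ctrl and 77.0 ± 10.2 (n = 2) for Confine. Its log2 fold change was 1.52 ± 0.19, with a 95% interval of 1.13 to 1.91, an adjusted p of 7.95e-06 by edgeR and rank 821 from the top. Its lowest value among 14 alternatives, 1.31, came from scaling by library size alone, and Jmy passed the test in 14. Pseudogenes within Jmy on the other strand had at most 7 counts.

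Wasf1 (chr10:40883475-40938570, plus strand) codes WAVE1, the WAVE protein best known from neurons, where it acts in growth cones and dendritic spines. It was counted 220, 311 and 195 times in Ctrl and 99 and 93 times in Confine. That gave 7.60, 11.8 and 8.29 CPM in Ctrl and 3.34 and 3.69 in Confine, so that every Confine level lay below every Ctrl level. Means were 9.22 ± 2.23 CPM (n = 3) for Ctrl and 3.52 ± 0.246 (n = 2) for Confine, which gave a log2 fold change of -1.39 ± 0.27, with a 95% interval of -1.95 to -0.82 and an adjusted p of 0.000815 by edgeR, rank 731 from the bottom. It stayed between -1.60 and -1.17 in 14 alternatives and passed the test in 14. The 6 neuron markers, of which 3 were tested, were also lower on sum and added up to 29.8 to 42.1 CPM in Ctrl and to 23.4 and 23.7 in Confine. Map2, a dendritic microtubule protein, was the only one of them that passed the test (log2 fold change -2.26, adjusted p = 0.000194 by edgeR), and Rbfox3 had no count in any library. Their part in the Wasf1 result was not tested.

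Wasf2 (chr4:133130505-133199756, plus strand) codes WAVE2, the WAVE protein of lamellipodia in most cells. It was at 74.2, 101 and 70.2 CPM in Ctrl and 92.3 and 95.7 in Confine, and the Confine libraries lay inside the Ctrl range. Its log2 fold change was 0.20 ± 0.19 (95% interval -0.20 to 0.61, adjusted p = 0.501 by edgeR). Among Wasf1 and Wasf2 together, per kb of exon, Wasf1 held 18.3%, 20.4% and 20.6% in Ctrl and 7.36% and 7.80% in Confine. The mean share was 19.8% ± 1.24 (n = 3) and 7.58% ± 0.311 (n = 2), the groups did not overlap, and the exact two-sided permutation test gave p = 0.1, the smallest that 3 against 2 libraries allow. This share was not planned beforehand and uses the same counts as the Wasf1 call, so it is no separate support for it.

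Wasl (chr6:24613805-24665009, minus strand), which codes N-WASP, an activator at endocytic sites and invadopodia, was the most even of the factors. It was at 15.7, 14.9 and 15.9 CPM in Ctrl and 17.8 and 15.1 in Confine, with Confine 3 inside the Ctrl range. Its log2 fold change was 0.09 ± 0.20, and the 95% interval of -0.33 to 0.50 leaves room for a moderate change either way (adjusted p = 0.807 by edgeR). The directions of Wasl, Wasf2 and Actr2 turned when libraries were scaled by total count alone (-0.12, -0.0084 and -0.021), a scaling that shifted the median of all genes to -0.21.

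**Figure D2:**
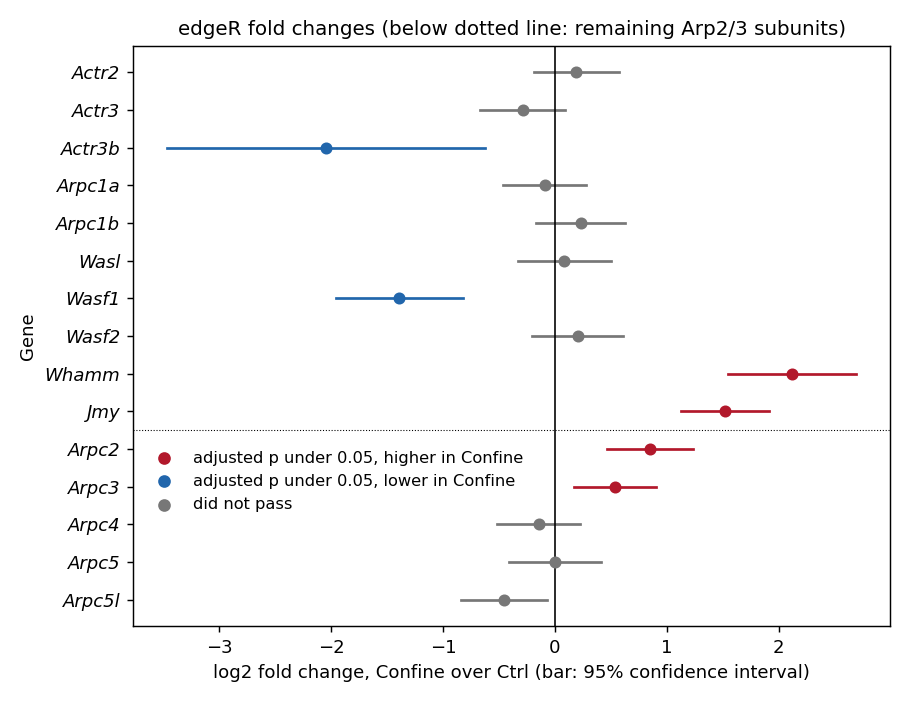
Fitted log2 fold change (Confine over Ctrl) of each of the 10 genes, and below the dotted line of the 5 remaining Arp2/3 subunits, with bars for 95% intervals and colour for an adjusted p under 0.05. The intervals of Whamm (1.55 to 2.69), Jmy (1.13 to 1.91), Wasf1 (-1.95 to -0.82) and Actr3b (-3.46 to -0.63) lie away from 0, and those of the other 6 of the 10 genes include it.

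The makeup of the 5 activators differed between the groups. Other activators were left out of this sum. Among them, mean Cttn was at 60.1 CPM per kb in Ctrl and 56.9 in Confine, and Washc1 at 9.21 and 6.41. The shares below are therefore of these 5 genes and not of all activators. Per kb of exon, Whamm and Jmy together made up 17.2%, 16.9% and 17.5% of the 5 in Ctrl and 40.4% and 39.2% in Confine. This share depends on ratios within a library and not on the scaling between libraries. Its mean was 17.2% ± 0.310 (n = 3) in Ctrl and 39.8% ± 0.800 (n = 2) in Confine, a difference of 22.6 percentage points (exact two-sided permutation p = 0.1, the smallest possible). Leaving out single libraries gave differences of 22.0 to 23.1 points, and counts without division by length gave 22.0. The share was set with earlier results of these data known. It uses the same counts as the calls of Whamm, Jmy and Wasf1, so it is no separate support for them.

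By gene, Jmy went from a mean of 13.4% to 27.6% and Whamm from 3.81% to 12.1%, while Wasf1 went from 14.1% to 3.92%. Wasf2 remained the largest part in both groups, at 57.3% ± 1.86 in Ctrl and 47.8% ± 1.44 in Confine. For each of these 4 genes the shares of the groups did not overlap, with p = 0.1 by the exact permutation test. The shares of single genes were not planned beforehand and restate the counts behind the gene calls. The share of Wasl was 11.3% and 8.49%, with overlapping groups (exact permutation p = 0.3). Since shares sum to a fixed total, a smaller share of Wasf2 and Wasl stands beside levels that did not pass the test.

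**Figure D3:**
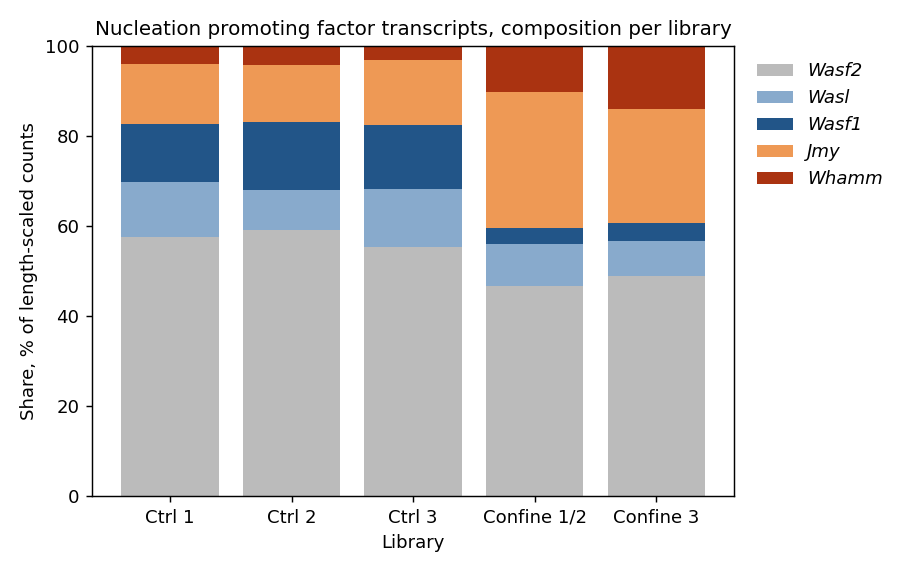
Share of Wasl, Wasf1, Wasf2, Whamm and Jmy in their summed level, as stacked bars for each library, in percent of counts scaled by exon length (Confine 1/2 is the library named Confine 1). Whamm and Jmy take 16.9% to 17.5% of each Ctrl library and 39.2% or 40.4% of each Confine library.

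Actr2 (chr11:20062304-20112913, minus strand), coding Arp2, was at 442, 518 and 444 CPM in Ctrl and 589 and 479 in Confine. Confine 1 was the highest library, while Confine 3 lay inside the Ctrl range. The log2 fold change was 0.19 ± 0.18 (95% interval -0.19 to 0.57, adjusted p = 0.501 by edgeR).

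Actr3 (chr1:125392905-125435727, minus strand), coding Arp3, was at 278, 217 and 247 CPM in Ctrl and 212 and 193 in Confine. The groups did not overlap, but Confine 1 and Ctrl 2 were separated by little. The log2 fold change was -0.29 ± 0.18 (95% interval -0.67 to 0.09, adjusted p = 0.285 by edgeR), and with scaling by library size alone it was -0.50 with an adjusted p of 0.0481. The processed pseudogene Gm8822 matches Actr3 over 2348 bases at 98.8% identity and had 108 to 215 counts, and Gm15899 matches it over 238 bases at 100% identity and had 5 to 18. Reads shared between these copies may have been split or left uncounted, which was not measured, so the level of Actr3 is uncertain to that extent.

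Actr3b (chr5:25759997-25850688, plus strand) codes Arp3B, an isoform that can replace Arp3 in the complex. It was rare, with 19, 25 and 11 counts in Ctrl and 5 and 4 in Confine, or 0.656, 0.945 and 0.468 CPM against 0.169 and 0.159. Both Confine levels lay below all Ctrl levels, but at 5 and 4 counts they lay close to the floor of 3. The log2 fold change was -2.05 ± 0.67 (95% interval -3.46 to -0.63, adjusted p = 0.035 by edgeR). The call held in 5 of 13 alternatives. Adjusted p was 0.0564 without Ctrl 1, 0.0684 without Ctrl 2, 0.170 without Confine 1 and 0.185 without Confine 3, and it was 0.0551 in DESeq2 and 0.0531 in limma-voom. Actr3b made up 0.448%, 0.824% and 0.361% of Actr3 and Actr3b per kb in Ctrl and 0.152% and 0.157% in Confine (exact permutation p = 0.2). Without Ctrl 2 the difference in this share was -0.25 points in place of -0.39. The paralog therefore accounted for under 1% of Arp3 transcripts in every library.

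Arpc1a and Arpc1b lie next to each other on chromosome 5 (chr5:145083830-145108761 and chr5:145114215-145130705, plus strand) and code alternative forms of the ArpC1 subunit, the beta-propeller that contacts the activators. Arpc1a was at 85.0, 80.5 and 84.2 CPM in Ctrl and 82.4 and 73.8 in Confine, with a log2 fold change of -0.09 ± 0.18 (95% interval -0.46 to 0.28, adjusted p = 0.765 by edgeR). Arpc1b was at 1231, 925 and 1313 CPM in Ctrl and 1347 and 1365 in Confine. Arpc1b was higher in both Confine libraries than in any Ctrl library, yet by less than the spread within Ctrl, and its log2 fold change was 0.23 ± 0.19 (95% interval -0.17 to 0.63, adjusted p = 0.425 by edgeR). Arpc1b shares exon sequence with Pdap1 on the opposite strand, which had 3736 to 4787 counts, and the strand setting of the counting is not given in the sources used here. The pseudogene Gm5637, a near copy of Arpc1b, had 210 to 438 counts.

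Arpc1b was the dominant form. It held 87.9%, 85.2% and 88.7% of Arpc1a and Arpc1b per kb in Ctrl and 89.1% and 90.3% in Confine. The groups did not overlap. The difference of 2.44 points had an exact permutation p of 0.2, in a design that cannot go below 0.1, and it was 1.41 points without Ctrl 2, the library with the lowest share.

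The 5 remaining subunit genes, Arpc2, Arpc3, Arpc4, Arpc5 and Arpc5l, complete the complex. Arpc2, whose product with ArpC4 forms the core that binds the mother filament, was at 290, 215 and 260 CPM in Ctrl and 429 and 490 in Confine. It rose, with a log2 fold change of 0.85 ± 0.18 and an adjusted p of 0.00214 by edgeR, and it passed the test in 14 of 14 alternatives. Arpc3 was at 66.3, 74.2 and 74.3 CPM in Ctrl and 105 and 103 in Confine and rose by a log2 fold change of 0.54 (adjusted p = 0.0329 by edgeR). The call of Arpc3 was lost without Ctrl 1 (adjusted p = 0.149) or Ctrl 3 (0.0679) and with scaling by library size alone (0.186). It was also lost with the replicate block as number 2 (0.247), and without Confine 1 (log2 fold change 0.52) or Confine 3 (0.55). Arpc4 (-0.14, adjusted p = 0.617), Arpc5 (0.0023, adjusted p = 0.995) and Arpc5l (-0.45, adjusted p = 0.0857) did not pass the same test. Of these 5 genes, 40.0% thus passed, where 23.0% of all tested genes did.

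Because the complex holds 1 copy of each subunit, levels per kb of exon were also set against each other by position, with paralogs summed. ArpC1 was the highest position, at 258 ± 40.9 CPM per kb in Ctrl (n = 3) and 296 ± 0.112 in Confine (n = 2), and ArpC3 the lowest, at 25.9 ± 1.65 and 37.6 ± 0.581. The highest position exceeded the lowest by 7.78-fold to 11.4-fold in the 5 libraries, and such folds between genes also carry differences in capture and mapping.

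Ratios between positions, chosen after the values were seen, do not depend on scaling between libraries. Arpc2 over Actr3 was 2.37, 2.26 and 2.40 in Ctrl and 4.60 and 5.79 in Confine, and Arpc2 over Arpc4 was 2.19, 1.93 and 2.11 against 3.96 and 4.34. Neither pair of groups overlapped, and each gave an exact permutation p of 0.1, the smallest possible. Both use the counts behind the Arpc2 call, so they are no separate support for it. The uncertain level of Actr3 carries over to its ratios, and Arpc4 matches Ttll3 over 283 bases at 100% identity. Actr2 over Actr3 was 1.41, 2.12 and 1.60 in Ctrl and 2.47 and 2.21 in Confine (exact permutation p = 0.2), with Ctrl 2 close to the Confine libraries. Arpc1b over Actr3 was 4.0, 3.85 and 4.82 in Ctrl and 5.74 and 6.41 in Confine (exact permutation p = 0.1).

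Across the 10 genes, levels per kb spanned a wide range and the subunits lay above the activators, except for Actr3b. The order in Ctrl was Arpc1b at 226 CPM per kb, Actr2 at 89.9, Actr3 at 53.4, Arpc1a at 32.4, Wasf2 at 13.0, Wasf1 at 3.23, Jmy at 3.03, Wasl at 2.52, Whamm at 0.874 and Actr3b at 0.284. Only Wasf1 and Jmy, among neighbours in that order, had overlapping library ranges. In Confine the first 5 places were the same, followed by Jmy at 8.69, Whamm at 3.82, Wasl at 2.67, Wasf1 at 1.23 and Actr3b at 0.0676, with no overlap between neighbours over 2 libraries. Per kb, Jmy thus stood above Wasf1 in Confine where their library ranges overlapped in Ctrl, and Whamm stood above Wasl where it had been below. Both statements rest on the lengths used, which merge all annotated exons of a gene. In mean CPM without that division, Jmy lay above Wasf1 already in Ctrl (26.8 against 9.22). Whamm lay below Wasl in Confine as well (12.1 against 16.5 CPM).

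Around these 10 genes, 7 further lists of the branched actin pathway held 55 genes, of which 47 were tested. In these lists 6 genes rose and 4 fell, or 21.3%, against 23.0% of all tested genes, and their median log2 fold change was -0.011. The share is near the background. The other activators Was, Washc1 and Cttn, the 5 tested partners of WAVE in its regulatory complex (Cyfip1, Nckap1, Abi1, Abi2 and Brk1) and the 3 tested inhibitors or debranching factors did not pass the test. Abi1, which links WAVE to its partners, had a log2 fold change of -0.03, and Nckap1 of -0.06, beside the lower level of Wasf1.

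Of the 4 partners of WASH, the activator on endosomes, Washc2 (log2 fold change -0.71, adjusted p = 0.00872 by edgeR) and Washc5 (-0.54, adjusted p = 0.0447) fell. Washc2 lost its call without Confine 1 (log2 fold change -0.73) or Confine 3 (-0.68), and so did Washc5 (-0.61 and -0.47). Washc5 also lost it without Ctrl 1 (adjusted p = 0.0869) and with the replicate block as number 2 (0.153). Washc1, the WASH protein itself, had a log2 fold change of -0.52 and did not pass (adjusted p = 0.0583).

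Of the 17 tested GTPases, adaptors and partners that act on the activators, 4 rose and 1 fell, or 29.4%, against 23.0% of all tested genes. Rac3, a Rac GTPase, was at 2.63, 3.74 and 2.21 CPM in Ctrl and 10.3 and 15.5 in Confine (log2 fold change 2.17, adjusted p = 1.09e-05 by edgeR), a change of the size of that of Whamm. Rac1, the main Rac of fibroblasts, and Cdc42 had log2 fold changes of 0.14 and -0.13 and did not pass. Rhod, a GTPase that binds WHAMM, fell (log2 fold change -1.11, adjusted p = 0.000482), with 48.5, 34.9 and 43.0 CPM in Ctrl and 21.1 and 17.8 in Confine. Rac3 and Rhod passed in 14 of 14 alternatives.

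Trip10, an adaptor between Cdc42 and N-WASP, rose (log2 fold change 0.86, adjusted p = 0.00201 by edgeR), though not without Confine 3 (0.0754). Rhog (0.62, adjusted p = 0.0237) and Wipf2, a partner of N-WASP (0.59, adjusted p = 0.0413), rose as well. The call of Rhog was lost with scaling by library size alone (adjusted p = 0.108), and without Confine 1 (log2 fold change 0.64) or Confine 3 (0.60). Wipf2 passed in 7 of 14 alternatives. Its call was lost without Ctrl 1 (adjusted p = 0.170) or Ctrl 3 (0.063), with library size alone (0.192) and with no filter beyond 1 count (0.0699). It was also lost with the replicate block as number 2 (0.241), and without Confine 1 (log2 fold change 0.62) or Confine 3 (0.55). Ttc5, a cofactor that binds JMY, had a log2 fold change of 0.0099 (adjusted p = 0.978).

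Of 10 genes for actin, profilin, cofilin and capping protein, Pfn1 alone passed the test and fell, or 10.0%, against 23.0% of all tested genes. Pfn1, the main profilin, was at 160, 81.1 and 63.6 CPM in Ctrl and 47.3 and 50.7 in Confine (log2 fold change -1.05, adjusted p = 0.012 by edgeR), with Ctrl 1 far above the other libraries. Without Ctrl 1 its log2 fold change was -0.57 (adjusted p = 0.0923), and with the replicate block as number 2 it was -0.55 (adjusted p = 0.167). In DESeq2 adjusted p was 0.162. The call of Pfn1 was also lost without Confine 1 (log2 fold change -1.0) or Confine 3 (-1.1). Actb and Actg1, the cytoplasmic actins, had log2 fold changes of -0.01 and 0.04.

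**Figure D4:**
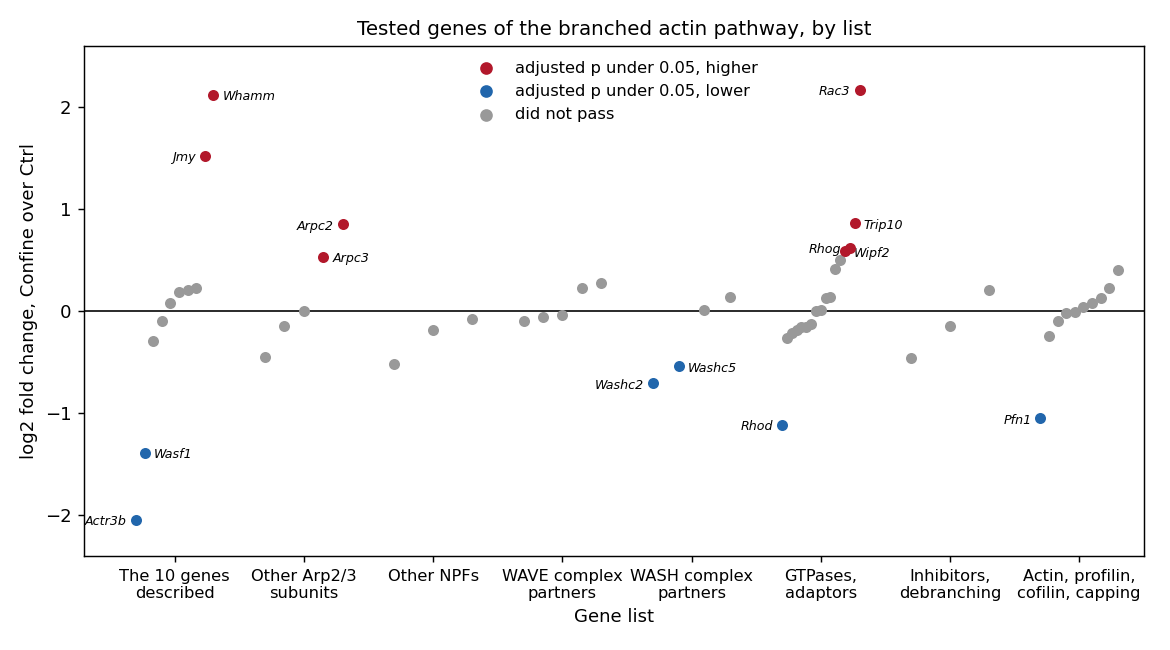
Log2 fold change (Confine over Ctrl) of every tested gene of the branched actin pathway, in columns by list, with genes at an adjusted p under 0.05 in colour and named. Whamm (2.12) and Rac3 (2.17) lie highest and Actr3b (-2.05) lowest, and the median over the tested genes of the 7 further lists is -0.011.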

How the data were processed

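RNA-seq libraries of MEFs were compared, 3 Ctrl against 3 deposited Confine columns of which 2 were identical and counted once. The authors deposited raw counts per gene. Per the labels' processing notes, the tools were Trim Galore 0.6.10, HISAT2 2.1.0, SAMtools 1.5 and featureCounts with the mm10 genome. The annotation and strand setting are not given in the sources used here. Gene names, positions and exon lengths came from GENCODE M21 (GRCm38), in which 55154 of the 55335 identifiers were found.

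Counts were filtered with filterByExpr, scaled by TMM (factors 1.04, 1.08 and 1.06 in Ctrl, 0.910 and 0.924 in Confine) and fitted in edgeR 4.0.16 (R 4.3.3) for its quasi-likelihood F test, over all 15881 genes with Benjamini-Hochberg adjustment and a call at an adjusted p under 0.05. SEs were derived from the F statistic, and 95% intervals from 3 residual and 14.8 prior degrees of freedom. Shares and ratios used counts divided by exon length and exact two-sided permutation tests. The floor of 3 counts covers counting error only, since reads lack molecular identifiers, and intervals of fold changes cover the spread between libraries. Alternatives were DESeq2 1.42.0, voom in limma 3.58.1, other scalings and filters, left-out libraries and a replicate block. Sequence copies of at least 100 bases and 95% identity were searched with blastn 2.17.0. Replicate numbers were not taken as pairs in the main fit, and whether the libraries were paired is not known.

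All 10 genes were named in every library. From the other pathway lists, genes with an adjusted p under 0.05 and every Arp2/3 subunit were named, and further ones only to give their values. The genes and lists were chosen with earlier results of these data known. The study used DESeq2 for its comparison.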

Additional observations from a re-analysis of the deposited data

How the results depend on the processing

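Whamm, Jmy and Wasf1 kept their direction and their call in 14 of 14 alternatives. Of 139 values of member log2 fold changes under alternatives, 126 kept direction and side of the threshold, 8 lost the call (all Actr3b), 1 gained it (Actr3 with library size alone) and 4 turned, with library size alone for Actr2 (-0.021), Wasl (-0.12) and Wasf2 (-0.0084), and without Confine 1 for Wasl (-0.035). Scaling by library size alone gave 34.0% of calls higher in Confine in place of 55.7%.

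The count of genes called was 2054 to 4426 with a library left out (2256 without Confine 1, 2054 without Confine 3), against 3654, and the other pathway genes called were 3 to 15 against 10. The lone Confine library is then assumed to vary like the others. Demanding at least 10 counts in every library left 812 genes past the fold cutoff in place of 1271, and Actr3b was then not tested. With a replicate block, 2528 genes passed with the identical columns as number 2 and 4933 with them as number 1. With the block as number 2, 6 other pathway genes passed, and with it as number 1, 15 did, against 10 in the main fit. Actr3b had an adjusted p of 0.107 (as number 2) and 0.0859 (as number 1) in the 2 blocked edgeR fits. The deviations of same-numbered libraries correlated at -0.058 and 0.057, and the numbers were not taken as pairs. These correlations cannot exclude pairing, since it is not known which replicate the identical Confine columns hold. The cause of these differences was not tested.

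The Whamm and Jmy share differed by 22.0 to 23.1 points with a library left out, the Arpc1b share by 1.41 to 3.15 and the Actr3b share by -0.48 to -0.25. With 3 against 2 libraries, exact tests cannot go below 0.1, and Actr3b is limited by its depth.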
